A study of Mus musculus with 7 samples.

Results

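H3K27me3 was compared between spermatocytes of postnatal day 17 (P17) and postnatal day 12 (P12), peak by peak, in chromatin immunoprecipitation and sequencing data. The members were the 26387 H3K27me3 peaks of the P17 list and the 13028 of the P12 list, 39415 of the 137861 peaks in the 5 deposited lists of the series, together with the H3K27me3 reads counted over gene bodies at each stage. They were chosen by sample title, so no measured value decided which peaks entered. Both groups were spermatocytes of wild-type CD1 mice, an outbred stock, freed from the testis by enzymes and enriched on 5% Percoll. The P17 H3K27me3 files pooled 2 replicates, per the labels, and the P12 files held 1 sample, so there is no replicate error and no test between stages, and every interval below covers counting error in these lists and libraries. Of the 7 samples, 5 had files: H3K27me3 and H3K4me3 at both stages and EED at P17, the EED file from 1 sample with no pooling in its label, while input libraries were not analysed here. Each preparation is a population of cells, so the share of cells that carry a mark and its amount per cell cannot be told apart.

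H3K27me3 is placed by Polycomb repressive complex 2 (PRC2), in which EZH2 or EZH1 methylates lysine 27 of histone H3 and EED binds the finished mark and stimulates the enzyme. This reading and writing lets the mark extend from a nucleation site over neighbouring nucleosomes, so that a domain has a core and flanks. In germ cells the mark lies over many genes of somatic development, often together with H3K4me3, a mark of promoters. Between the stages compared, the first wave of male germ cells advances through meiotic prophase.

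Peaks present at P12 were almost always enlarged or joined at P17 and hardly ever broken up. Of the 13028 P12 peaks, 12417 (95.3%, Wilson 95% interval 94.9% to 95.7%) met a P17 peak by at least 1 bp, and 12235 of these lay wholly inside 1 P17 peak. Peaks that overlapped, directly or through a shared partner, were taken as 1 connected group, and each P12 peak was classed by the make-up of its group. Merged peaks, where 1 P17 peak took in 2 or more P12 peaks, numbered 6443 (49.5%, 48.6% to 50.3%), inside 2492 P17 peaks. Peaks paired one to one numbered 5944 (45.6%, 44.8% to 46.5%). Groups with 1 P12 peak and several P17 peaks held 2 P12 peaks (0.0154%, 0.00421% to 0.0560%), and groups with several on both sides held 28. The remaining 611 (4.69%, 4.34% to 5.07%) had no P17 peak over them. These names describe the lists, not a process followed in time.

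The merged share rests largely on close neighbours in the P12 list. When peaks of each list within 1 kb were first joined, 20.3% of the 9558 joined P12 peaks were merged and 73.8% paired one to one, and with peaks under 1 kb left out of both lists the merged share was 35.2%. Neighbours up to 1 kb apart made up 9.68% of the gaps in the P17 list and 26.7% of those in the P12 list. The narrowest peak was 500 bp wide at P17 and 187 bp at P12, and 689 P12 peaks were under 500 bp. The P17 gene-body file held 26664736 reads and the P12 file 13462873, a ratio of 1.98. Read number and pooling move with stage here, and caller settings, which are not given, may differ too. The part of each in the widths, joins and numbers of peaks was not tested.

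The class of a P12 peak varied with its width. Of P12 peaks under 500 bp, 22.4% (19.4% to 25.6%) had no P17 peak, against 7.75% at 500 bp to 1 kb, 0.952% at 1 to 2 kb, 0.295% at 2 to 5 kb and 1.35% (7 of 519) over 5 kb. The merged share stood between 42.2% and 49.2% in the classes up to 5 kb. Among the 519 peaks over 5 kb it was 71.5% (67.5% to 75.2%), so the broadest P12 peaks most often shared their P17 peak with other P12 peaks.

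**Figure D1:**
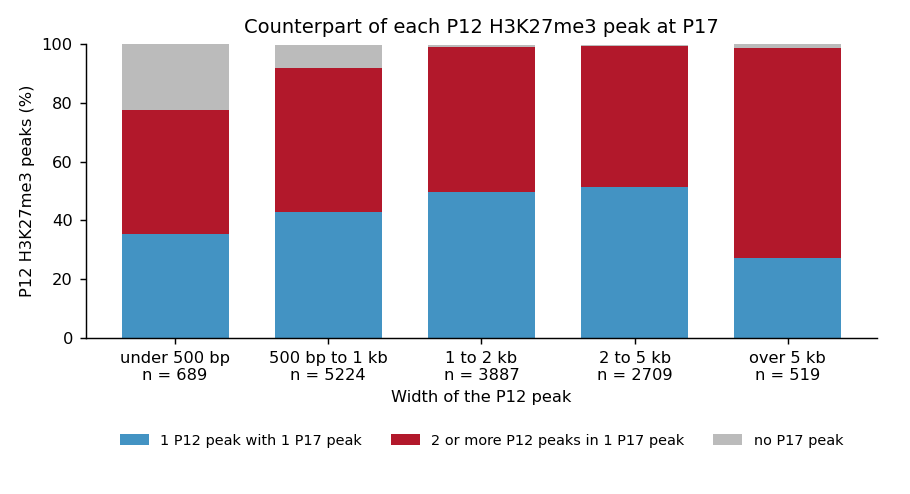
Share of P12 H3K27me3 peaks (vertical axis, percent) in each width class of the P12 peak (horizontal axis, with the number of peaks) that were paired with 1 P17 peak, merged with other P12 peaks inside 1 P17 peak, or had no P17 peak. The merged share is 71.5% over 5 kb, the share without a P17 peak is 22.4% under 500 bp, and 30 peaks of groups with several P17 peaks are not drawn.

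Peaks paired one to one gained a similar median length at every P12 width. Their median width was 3828 bp at P17 and 1145.5 bp at P12, a median ratio of 2.85 (quartiles 2.03 and 4.18), and 4517 of the 5944 (76.0%, 74.9% to 77.1%) were at least 2 times as wide. No pair was narrower at P17, down to the smallest gain of 26 bp. The median gain was 1954 bp for P12 peaks under 500 bp, 2293 bp at 500 bp to 1 kb, 2390 bp at 1 to 2 kb, 2310 bp at 2 to 5 kb and 2519 bp over 5 kb. The ratio therefore fell across the same classes, at medians of 5.32, 4.12, 2.70, 1.82 and 1.38. Across the 5944 pairs the Spearman correlation of P12 width with the gain was 0.05 and that of the P17 and P12 widths 0.63, both descriptions of pairs that share their libraries and callers. After peaks within 1 kb had been joined in both lists, the median gain was 2433 bp over 7058 pairs and lay between 2086.5 and 2526.5 bp in the 5 width classes, while 17 pairs were narrower at P17.

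Growth was on both sides of the P12 peak in 98.6% of pairs. The median extension was 1083 bp on the side of lower coordinates and 1085 bp on the other side. Single domains were less even, since the longer extension took a median of 65.0% of the gain where both sides grew. In the other 1.41% of pairs 1 edge stayed or drew back while the other moved out.

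H3K4me3, with a pool of 2 replicates at P17 and 1 sample at P12 as well, gives the scale of these numbers. One-to-one pairs took in 45.6% of P12 H3K27me3 peaks, against 92.5% (92.2% to 92.7%) of the 44142 P12 H3K4me3 peaks. Merged peaks were 49.5% for H3K27me3 and 3.07% (2.91% to 3.23%) for H3K4me3. One-to-one pairs had a median width ratio of 2.85 for H3K27me3 and 1.20 for H3K4me3, and a median gain of 2327 bp for H3K27me3 and 313 bp for H3K4me3. Pairs narrower at P17 were 0 of 5944 for H3K27me3 and 2489 of 40823 for H3K4me3. The shares without any P17 peak lay close together, at 4.69% (4.34% to 5.07%) for H3K27me3 and 4.35% (4.16% to 4.54%) for H3K4me3. No test of the marks against each other was made, as each has 1 list per stage.

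**Figure D2:**
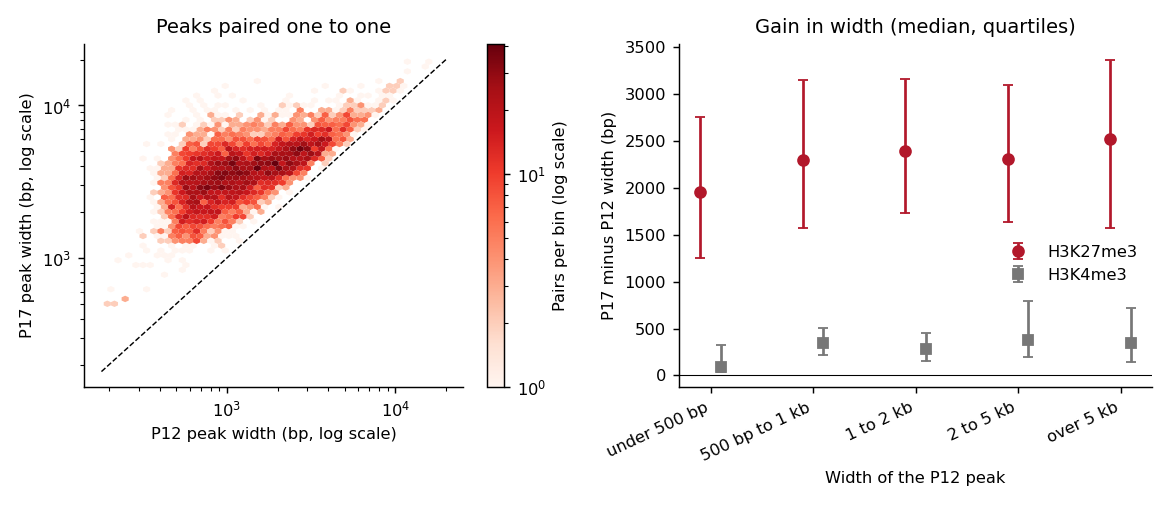
Left, width at P17 (vertical axis, bp, log scale) against width at P12 (horizontal axis, bp, log scale) of the 5944 H3K27me3 peaks paired one to one, with colour for the number of pairs and a dashed line of equal width; no pair lies below the line. Right, P17 minus P12 width (bp) of one-to-one pairs by width of the P12 peak, as medians with quartiles, where H3K27me3 lies between 1954 and 2519 bp in each class and H3K4me3 between 86 and 382 bp.

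The largest gains of single peaks were over 10 kb. On chromosome 5 (mm9) a P17 peak at 120529278 to 120543823 spanned 14546 bp around a P12 peak of 1508 bp at 120534575 to 120536082. It extended 5297 bp to the lower side and 7741 bp to the higher side, and 2 H3K4me3 peaks lay on it at each stage. On chromosome 2 a P17 peak of 13052 bp at 164944716 to 164957767 enclosed a P12 peak of 943 bp, with 252 bp of growth on the lower side and 11857 bp on the other, the most one-sided of the 5 largest gains. A further 3 gains were of 11526 bp and 10738 bp on chromosome 11 and 10878 bp on chromosome 17, the last with 11569 bp at P17 against 691 bp at P12. None of these 5 domains carried an EED peak, where EED lay on only 2.89% of all P17 peaks with 1 P12 peak. The smallest gain, 26 bp, belonged to a peak of 1261 bp at P17 and 1235 bp at P12 on chromosome 7 at 134093694 to 134094954, followed by gains of 182 bp on chromosome 8, 237 bp on chromosome 16, 238 bp on chromosome 11 and 245 bp on chromosome 6.

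Merging followed the distance between P12 neighbours. A gap between neighbouring P12 peaks was counted as filled where 1 P17 peak overlapped both. Of 3470 gaps up to 1 kb, 3365 were filled (97.0%, 96.4% to 97.5%). The share was 71.3% (67.4% to 74.9%) of 550 gaps of 1 to 2 kb and 21.9% (19.3% to 24.7%) of 883 gaps of 2 to 5 kb. At 5 to 10 kb, 18 of 869 were filled (2.07%, 1.31% to 3.25%), the longest measuring 8006 bp. At 10 to 20 kb none of 992 was filled (upper Wilson bound 0.386%). H3K4me3 peaks filled fewer gaps of the same length, 41.0% (38.5% to 43.7%) up to 1 kb, 7.19% (5.93% to 8.69%) at 1 to 2 kb and 1.08% (0.802% to 1.46%) at 2 to 5 kb. The P12 H3K27me3 list skips 1957 of its 14985 peak numbers, which leaves room for peaks removed before deposit. Among gaps of 5 to 10 kb, those with a skipped number were filled in 8 of 114 cases (7.02%, 3.60% to 13.2%) and those without in 10 of 755 (1.32%, 0.721% to 2.42%). Up to 1 kb, 24 of 26 gaps with a skipped number were filled (92.3%, 75.9% to 97.9%), against 97.0% (96.4% to 97.5%) of the 3444 without.

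**Figure D3:**
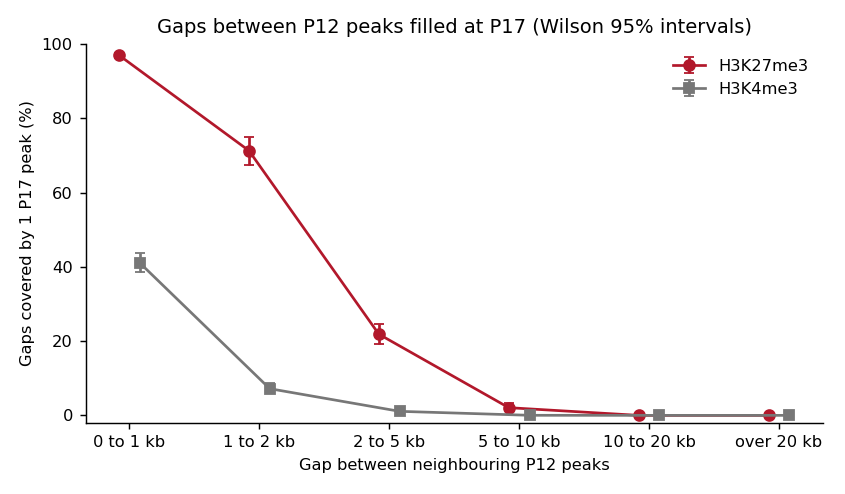
Share of gaps between neighbouring P12 peaks that 1 P17 peak of the same mark covered (vertical axis, percent, with Wilson 95% intervals) by length of the gap (horizontal axis), for H3K27me3 and H3K4me3. For H3K27me3 the share is 97.0% up to 1 kb, 71.3% at 1 to 2 kb, 21.9% at 2 to 5 kb, 2.07% at 5 to 10 kb and 0 beyond.

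An H3K4me3 peak lying in a gap went with a higher filled share at short distances. For gaps of 1 to 2 kb, 82.0% (74.6% to 87.6%) were filled where a P12 H3K4me3 peak lay in the gap and 67.9% (63.2% to 72.2%) where none did. At 2 to 5 kb the shares were 22.2% (18.0% to 27.1%) and 21.7% (18.5% to 25.3%), whose intervals overlap. EED peaks lay in few gaps, 91 of those up to 1 kb and 19 of those of 1 to 2 kb, so their share of filled gaps had wide intervals.

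In a typical merged domain most of the new length lay outside the P12 peaks, not between them. The 2492 merged P17 peaks had a median width of 6362 bp (quartiles 4731 and 9160 bp), against a median P12 span of 3804 bp from the first to the last P12 peak inside. The median domain held 3247.5 bp of P12 peak, 315 bp of filled gap and 2181 bp beyond the outer P12 edges. The outward 2181 bp is close to the 2327 bp that one-to-one peaks gained, and 96.7% of merged domains passed the P12 span at both ends. Of P17 peaks with several P12 peaks, 1718 held 2, 477 held 3 and 161 held 4. A further 148 held 5 or more, 961 P12 peaks in all, and the most was 20.

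The domain with 20 P12 peaks lay on chromosome 11 (mm9) at 96129003 to 96219277. It measured 90275 bp at P17, while its P12 peaks covered 78616 bp in pieces of 656 to 14589 bp separated by 8329 bp of gap. It grew beyond its P12 ends by 921 and 2409 bp. It carried 47 EED peaks and 15 H3K4me3 peaks at each stage. On chromosome 15 the P17 peak at 102738509 to 102834200 measured 95692 bp and took in 18 P12 peaks covering 84911 bp, with growth of 485 and 2241 bp at its ends and 29 EED peaks. A P17 peak on chromosome 2 at 74482891 to 74555463, of 72573 bp, took in 13 P12 peaks covering 64823 bp and 36 EED peaks. In these 3 domains the P12 list already held most of the bases, and the P17 list differed mainly by closing the gaps.

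Other many-piece domains carried fewer EED peaks. A second domain on chromosome 11, at 96025689 to 96071294, measured 45606 bp, joined 14 P12 peaks covering 30899 bp and held 14 EED peaks. Another 14 P12 peaks, covering 30770 bp, lay in a P17 peak of 41330 bp on chromosome 8 at 59788783 to 59830112 with 15 EED peaks. On chromosome 4 a P17 peak of 45374 bp at 139355374 to 139400747 joined 12 P12 peaks covering 28690 bp, with 11683 bp of filled gap, the most among these 10 domains, and 5 EED peaks. A P17 peak of 26387 bp on chromosome 8 at 123403350 to 123429736 joined 12 narrow P12 peaks, each of 2829 bp or less, and held no EED peak. The last 3 of the 10 domains, on chromosomes 1, 3 and 6, measured 35263, 39741 and 37489 bp and joined 11, 10 and 10 P12 peaks with 9, 10 and 11 EED peaks. No mm9 gene annotation was used, so genes within these domains are not named.

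**Figure D4:**
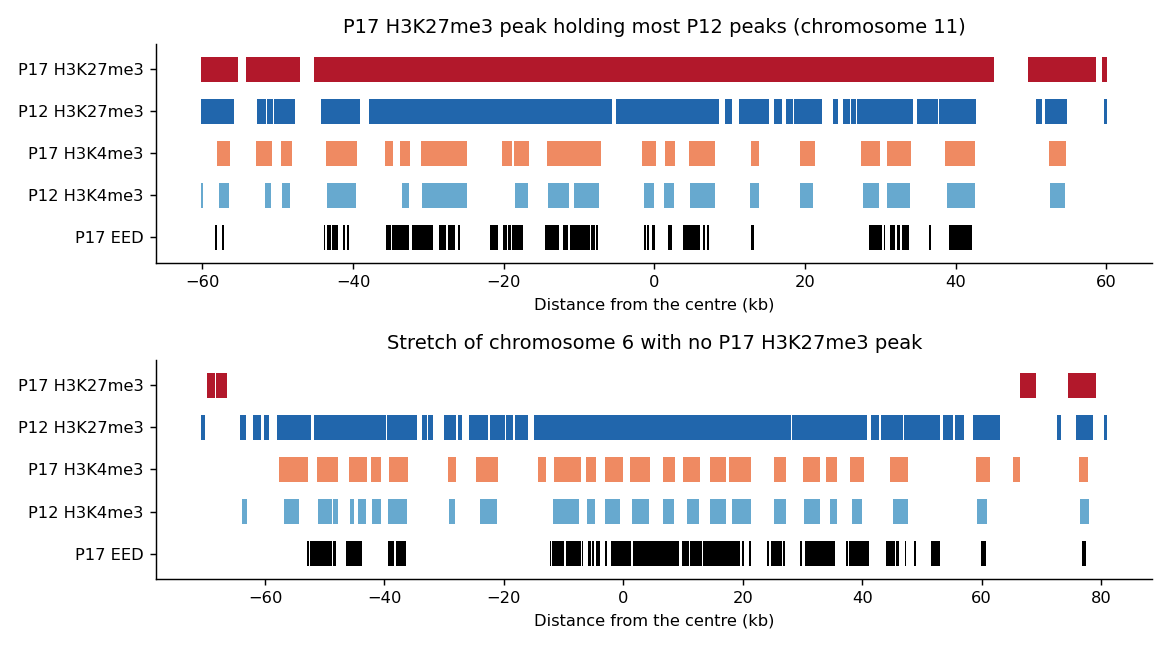
Peaks of the 5 lists (rows, P17 H3K27me3 at the top) along distance from the centre of a region (horizontal axis, kb). Above, the P17 H3K27me3 peak of 90275 bp on chromosome 11 that takes in 20 P12 peaks and 47 EED peaks; below, the 133 kb of chromosome 6 that hold 26 P12 H3K27me3 peaks and 47 EED peaks but no P17 H3K27me3 peak.

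Width and P12 content of a P17 domain went together. All 101 P17 domains of at least 20 kb were merged ones, as were 521 of the 590 of at least 10 kb, where 66 were paired one to one and 3 were new. The P12 list held 5 peaks of at least 20 kb and 89 of at least 10 kb. EED lay on 0.245% of P17 peaks with no P12 peak, 2.89% of those with 1, 9.20% of those with 2, 21.8% of those with 3 to 4 and 58.8% (50.7% to 66.4%) of those with 5 or more. Domains with more P12 peaks were also wider, with medians of 2114, 3826, 5520.5, 8479 and 18945 bp in the same 5 classes. At a P17 width of 5 to 10 kb, EED lay on 1.88% (0.914% to 3.83%) of domains with no P12 peak, 6.73% (5.54% to 8.15%) with 1 and 9.72% (8.20% to 11.5%) with 2 or more.

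Splitting was rare and the breaks were short. In all, 13 of 13028 P12 peaks (0.0998%, 0.0583% to 0.171%) were overlapped by 2 P17 peaks, and none by more. They were 407 to 2065 bp wide at P12, and the break between the P17 peaks measured 1 to 328 bp with a median of 228 bp. The widest, on chromosome 8 at 123225398 to 123227462, lay under P17 peaks of 3780 and 3781 bp with 267 bp between them. The next, of 1568 bp at P12 on chromosome 12 at 81837895 to 81839462, met P17 peaks of 4029 and 4317 bp that were 66 bp apart. The other 3 of the 5 widest lay on chromosomes 9, 8 and 4, with breaks of 52, 328 and 6 bp. Thus each was broken inside a marked region that was wider at P17 than the P12 peak itself. None of the 13 carried an EED peak, which lay on only 2.64% of one-to-one and 9.78% of merged P12 peaks. None carried a P12 H3K4me3 peak, against 71.0% of one-to-one and 61.1% of merged peaks. A P17 H3K4me3 peak lay on 1, against 73.1% of one-to-one and 65.5% of merged peaks. With an overlap of 50% of the narrower peak required, no P12 peak stood in a group of 1 P12 peak and several P17 peaks.

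The P12 peaks without a P17 peak were narrow, apart from 1 long stretch. Their median width was 594 bp, and 420 of the runs they formed along the chromosomes were single peaks. The longest run held 29 consecutive P12 peaks on chromosome 6 and the next longest 6 on chromosome 8. Within that run, 132732 bp at 52097777 to 52230508 (mm9) had no P17 H3K27me3 peak, although 26 P12 peaks covered 113.9 kb of it. These were 26 of the 611 peaks but 113.9 of their 494.2 kb. The stretch carried 47 EED peaks at P17 and 23 H3K4me3 peaks at P17, against 25 at P12, and its flanking P17 H3K27me3 peaks bear consecutive numbers, 20581 and 20582. Of the 5 widest P12 peaks without a P17 peak, 4 lay in it, at 43007, 12681, 9657 and 6061 bp. The remaining one, of 6154 bp, lay on chromosome 17 at 39979685 to 39985838, with the nearest P17 peak 265846 bp away. Outside the stretch it was the sole P12 peak of 5 kb or more without a P17 peak. Unlike the gene entries, the peak lists were not filtered here for multicopy sequence, and this interval was not checked for it.

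Gene-body reads at Hox genes bear on that stretch without being tied to it by coordinates. The Hox genes set position along the body axis, and the RefSeq gene table places their 4 mouse clusters on chromosomes 6 (HoxA), 11 (HoxB), 15 (HoxC) and 2 (HoxD). The 11 measured HoxA genes summed to 1078 CPM (reads scaled to the library total) at P17, against 842 CPM at P12. These sums rest on 28751 and 11331 reads, a log2 ratio of 0.36 (95% counting interval 0.33 to 0.39). Hoxa3 alone held 11850 of these reads at P17 and 4926 at P12. Where Hox gene bodies overlap, a sum counts the same read more than once and its interval is too narrow. How far they overlap was not examined. HoxB summed to 716 CPM at P17, against 515 CPM at P12 (log2 ratio 0.48). HoxC summed to 522 CPM at P17, against 392 CPM at P12 (0.42). HoxD summed to 849 CPM at P17, against 646 CPM at P12 (0.40). Reads over HoxA were thus higher at P17 by a ratio near that of the other clusters, while the P17 peak list was empty over the stretch of chromosome 6 described above. Whether the HoxA genes lie in that stretch was not established without mm9 gene positions, and why the list is empty there was not tested.

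The added territory carried less of the other 2 profiles than the P12 cores did. Of the 86.4 Mb under P17 peaks, 21.0 Mb were P12 peak bases, 2.03 Mb filled gaps, 21.3 Mb outward flanks of P12 peaks and 42.0 Mb new peaks. P17 H3K4me3 peaks covered 66.2% of the P12 peak bases, 24.8% of the filled gaps, 23.5% of the outward flanks and 41.1% of the new peaks. In unfilled gaps up to 20 kb between kept peaks the cover was 7.97%. P12 H3K4me3 peaks gave 59.4%, 18.6%, 17.1%, 33.7% and 5.10% in the same order of regions. The centres of P17 EED peaks numbered 97.2 per Mb in P12 peak bases, 24.6 in filled gaps, 3.47 in outward flanks, 1.24 in new peaks and 1.18 in unfilled gaps. P12 peak bases kept at P17 held 2046 of the 2701 EED centres (75.7%), and all P12 peaks held 2093 (77.5%). EED at P17 thus lay mostly over bases that were already inside an H3K27me3 peak at P12.

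**Figure D5:**
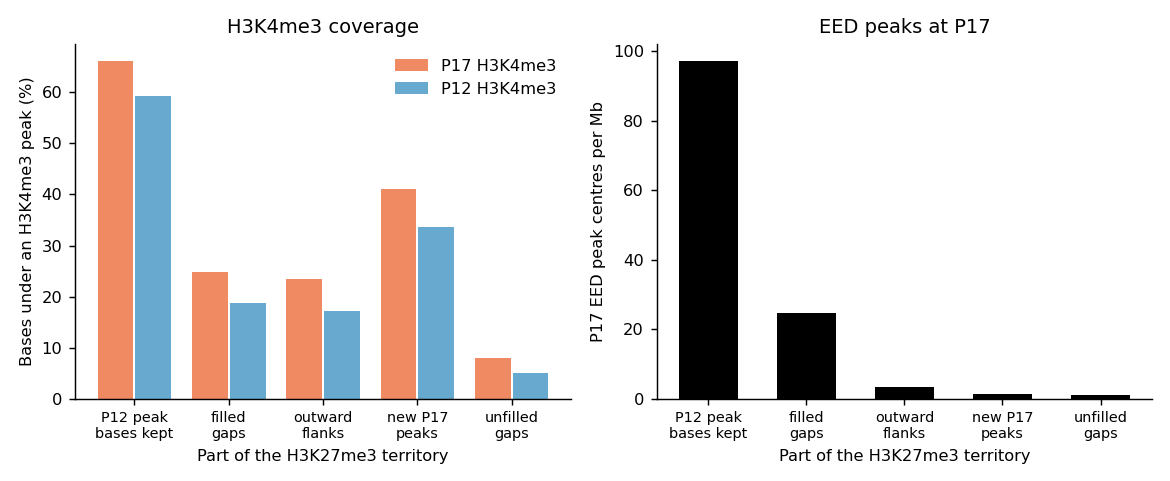
Left, share of bases (percent) under P17 and P12 H3K4me3 peaks, and right, P17 EED peak centres per Mb, in P12 peak bases kept at P17, filled gaps, outward flanks, new P17 peaks and unfilled gaps up to 20 kb between kept peaks. Outward flanks hold 3.47 EED centres per Mb and P12 peak bases 97.2, and H3K4me3 at P17 covers 23.5% of outward flanks and 66.2% of P12 peak bases.

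Within the P12 peaks the readouts differed by class. EED lay on 9.78% (9.08% to 10.5%) of merged P12 peaks, 2.64% (2.26% to 3.08%) of one-to-one peaks and 1.47% (0.777% to 2.78%) of those without a P17 peak. The last share rests on 9 peaks. Among them are the peaks of 43007, 12681, 9657 and 6061 bp in the chromosome 6 stretch and that of 6154 bp on chromosome 17. P12 H3K4me3 lay on 61.1% (59.9% to 62.3%) of merged peaks, 71.0% (69.9% to 72.2%) of one-to-one peaks and 9.33% (7.27% to 11.9%) of those without a P17 peak. Counted per P12 peak, merged peaks thus carried EED more often and H3K4me3 less often than one-to-one peaks, beyond the counting intervals. Merged peaks share P17 domains, however, and are not separate units. Counted per P17 domain, P12 H3K4me3 lay on 73.0% of those with 1 P12 peak and 85.2% with 2. It lay on 90.4% with 3 to 4 and 96.6% with 5 or more. At a P17 width of 5 to 10 kb the shares were 89.7% with 1 and 89.4% with 2 or more. One-to-one peaks of 500 bp to 1 kb gained a median of 2516 bp (quartiles 1916 and 3319) where they carried P12 H3K4me3 and 2026 bp (1290.25 and 2896.5) where they did not. At 2 to 5 kb the medians were 2309 and 2422 bp. One-to-one peaks with EED gained a median of 2700 bp (n = 157) and those without 2318 bp (n = 5787).

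New P17 peaks were of one width at any distance from P12 peaks, but not of one H3K4me3 content. Of the 17925 P17 peaks without a P12 peak, 2524 (14.1%, 13.6% to 14.6%) lay within 5 kb of one and 12521 (69.9%) within 100 kb. Median widths lay between 2030.5 and 2178 bp in 5 distance classes, from up to 1 kb to over 100 kb. P17 H3K4me3 lay on 21.4% (17.7% to 25.6%) of those up to 1 kb from a P12 peak, 32.3% at 1 to 5 kb, 42.8% at 5 to 20 kb, 56.8% at 20 to 100 kb and 75.4% (74.3% to 76.6%) beyond. New peaks close to P12 domains thus seldom coincided with H3K4me3, and isolated ones mostly did. EED lay on under 0.5% of the new peaks in each distance class.

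Most gene bodies stayed within 2-fold in library-scaled reads. Peak territory was 86.4 Mb at P17 and 21.6 Mb at P12. It is an unlike measure, since it is not scaled for read number and gene bodies take in bases outside peaks. Of 21808 genes with at least 20 reads, 21106 (96.8%) had a P17/P12 ratio of library-scaled reads within 2-fold. The median log2 ratio was -0.08, with quartiles of -0.21 and 0.13. At P17, 561 genes (2.57%) were over 2-fold higher and 73 (0.335%) over 2-fold lower, each with an exact 95% interval that left out a ratio of 1. With at least 100 reads required, 493 were higher and 3 lower. The 1941 genes with the most reads in each library, of 19414 without multicopy entries, held 53.4% of reads at P17 and 54.4% at P12. Reads were thus no more concentrated on the leading genes of the P17 library than on those of the P12 library. Genes were ranked separately in each library and not scaled for length. The P17/P12 ratios describe 2 libraries with no replicate check, and scaling to the total leaves out any change common to all genes.

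By change in CPM, the largest gains of the gene bodies were at clustered protocadherins, cell-adhesion genes of neurons whose variable exons share constant ones. The entry Pcdha4-g had 1425 CPM at P17 and 1039 CPM at P12 (log2 ratio 0.46, interval 0.43 to 0.48). Pcdhga1 had 627 CPM at P17 and 395 CPM at P12 (0.67, 0.62 to 0.71). The other 8 of the 10 largest gains were Pcdhga2 to Pcdhga7, Pcdhgb1 and Pcdhgb2, with log2 ratios of 0.66 to 0.68. These gene bodies overlap and count the same reads, so they amount to 1 region for the gamma genes and not to 9 separate gains.

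The largest losses in CPM were mostly small as ratios, beside a median of -0.08 over all genes. This ranking by CPM difference was not scaled for gene length, and how far length accounts for it was not tested. Park2, a ubiquitin ligase gene, had 986 CPM at P17 and 1156 CPM at P12 (log2 ratio -0.23, interval -0.26 to -0.20), on 26291 and 15563 reads. Prdm16, a regulator of brown fat, had 691 CPM at P17 and 851 CPM at P12 (-0.30). Cntnap2, a neuronal adhesion gene, had 1124 CPM at P17 and 1266 CPM at P12 (-0.17). Zfp536, a zinc finger gene, had 253 CPM at P17 and 362 CPM at P12 (-0.52). Aff3, Rbms3, Macrod2, Slit3 and Wwox stood between -0.28 and -0.13, and between -0.20 and -0.06 when scaled with TMM factors. Cwc22, which encodes a spliceosome protein and lies in a region of variable copy number in mice, was the exception at 86.5 CPM at P17 and 211 CPM at P12 (-1.28), over 2-fold lower.

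H3K27me3 reads over genes of the PRC2 pathway itself are given as a description. Of 14 genes for PRC2 subunits and H3K27 demethylases, 0 were over 2-fold higher and 0 over 2-fold lower, a count that the shares of 2.57% and 0.335% over all genes do not set apart. Their median log2 ratio was -0.21, beside -0.08 for all genes. The core subunits stood at -0.37 for Eed (344 reads at P17 and 225 at P12), -0.25 for Suz12 and -0.19 for Ezh2, the main methyltransferase. Phf19, an accessory subunit that binds methylated H3K36, was highest at 0.26 (0.11 to 0.42), and Mtf2, its DNA-binding relative, lowest at -0.41 (-0.61 to -0.22). Jarid2, which helps bring PRC2 to chromatin, stood at 0.02 (-0.06 to 0.10), and the demethylase genes Kdm6a, Kdm6b and Uty at -0.35, 0.24 and -0.19.

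The 39 Hox genes, a list of PRC2 targets, had a median log2 ratio of 0.41, beside -0.08 for all genes. Of these, 37 lay above 0, as did 38.1% of all genes, and 0 were over 2-fold higher, beside 2.57% of all genes. Hox genes lie in clusters and their bodies may share reads, so they are not 39 separate observations. Hoxa4 stood lowest at -0.52 and Hoxc4 highest at 0.87. Markers of cells that a spermatocyte fraction could hold were read in the same way, as chromatin reads that say nothing of expression or of cell shares. The 11 measured Sertoli cell genes summed to 610 CPM at P17 and 443 CPM at P12, with a median log2 ratio of 0.45 and 8 above 0. The 8 Leydig and interstitial genes summed to 363 CPM at P17 and 256 CPM at P12, with a median of 0.19 and 5 above 0. The 9 spermatogonial genes had a lower sum at P17, 962 CPM against 1015 CPM at P12, but a median of 0.24 with 6 above 0, as Gfra1 and Zbtb16 carried most of the reads and stood at -0.22 and -0.34. The 10 meiotic prophase genes summed to 358 CPM at P17 and 423 CPM at P12, with a median of -0.28 and 1 above 0. Over 2-fold higher were 1 Sertoli gene, Vim, and 1 spermatogonial gene, Utf1, beside 2.57% of all genes. The make-up of the cell fractions cannot be checked from these reads, and its part in the differences was not tested.

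CG dinucleotides are the feature that PRC2 target promoters in mammals are known for, and 3 well-covered genes past 2-fold differed in CG content. The promoters below belong to 2 well-covered genes over 2-fold higher and 1 over 2-fold lower, of genes with 1 promoter entry in RefSeq. They were picked by read number from only part of these genes, without Gm, Rik and similar entries, after these values were seen. Each runs from 250 bases before to 50 after the gene start in GRCm38.p6, a later build than the mm9 of the peaks, and capitals mark each CG, which reads the same on both strands. Bahcc1, a BAH-domain chromatin gene at chr11:120232697-120232996 on the plus strand, had 160 CPM at P17 and 74.9 CPM at P12 (log2 ratio 1.09, interval 0.99 to 1.19). Its promoter holds 23 CG, as many as or more than which occur in 21.5% of 32851 RefSeq promoters. Tchh, the gene of the hair protein trichohyalin at chr3:93442080-93442379 on the plus strand, had 135 CPM at P17 and 43.1 CPM at P12 (1.65, 1.52 to 1.78), with 1 CG, a number reached by 94.6% of promoters. Cwc22, at chr2:77946307-77946606 on the minus strand, holds 11 CG, a number reached by 41.4%. The letters describe these windows and show no binding.
Bahcc1 promoter: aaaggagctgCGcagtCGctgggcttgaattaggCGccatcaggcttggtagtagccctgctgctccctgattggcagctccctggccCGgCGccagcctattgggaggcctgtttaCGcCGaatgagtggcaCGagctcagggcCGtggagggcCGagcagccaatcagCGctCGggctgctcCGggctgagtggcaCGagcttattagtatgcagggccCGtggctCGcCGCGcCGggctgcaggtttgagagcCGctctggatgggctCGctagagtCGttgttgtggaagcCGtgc
Tchh promoter: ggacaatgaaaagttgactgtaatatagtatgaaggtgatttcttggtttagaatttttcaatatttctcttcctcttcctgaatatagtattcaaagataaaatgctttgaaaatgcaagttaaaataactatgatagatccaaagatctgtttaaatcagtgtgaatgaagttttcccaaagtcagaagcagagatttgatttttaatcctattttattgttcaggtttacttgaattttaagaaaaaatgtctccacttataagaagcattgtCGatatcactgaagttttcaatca
Cwc22 promoter: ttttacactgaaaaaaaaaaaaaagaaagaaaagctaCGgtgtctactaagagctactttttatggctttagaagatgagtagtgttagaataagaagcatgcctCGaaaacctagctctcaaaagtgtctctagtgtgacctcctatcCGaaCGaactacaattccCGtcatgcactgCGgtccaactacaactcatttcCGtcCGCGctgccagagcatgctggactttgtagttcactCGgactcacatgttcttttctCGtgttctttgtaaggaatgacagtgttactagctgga

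The X chromosome, which is silenced as a unit in male meiosis, lay outside the range of the 19 autosomes in territory ratio and merged share. It held 117 P17 peaks and 120 P12 peaks, covering 0.351 and 0.148 Mb, a territory ratio of 2.37, where the 19 autosomes ranged from 3.63 on chromosome 2 to 4.94 on chromosome 16. The merged share of its P12 peaks was 69.2% (60.4% to 76.7%), against at most 58.1% on an autosome (chromosome 18, 53.4% to 62.7%). These intervals overlap. On the X chromosome 83 P12 peaks were merged, 36 paired one to one and 1 without a P17 peak. Its one-to-one peaks gained a median of 1501.5 bp, against 2333.5 bp on autosomes, while their median width ratio was 2.98, against 2.85 on autosomes. Gene-body reads of 517 X-linked genes with at least 100 reads had a median log2 ratio of -0.19 (quartiles -0.29 and -0.08), against -0.07 for 16966 autosomal genes (-0.19 and 0.13). The difference rests on 1 library per stage and was not tested.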

How the data were processed

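H3K27me3, H3K4me3 and EED peak lists and 2 H3K27me3 gene-body count files were used; samples were grouped by title (for the P17 H3K4me3 sample, the label's antibody entry reads H3K27me3). Bowtie, SAMtools and HTSeq are named, without roles or versions, and the build mm9, per the submitters' processing notes. The deposited counts are raw reads per gene symbol, made with multiBamCov per the file names, with no recorded input subtraction. The deposited peak positions come from MACS per the peak names, at level 5 for false discovery rate per the file names, with no score; the sources used here do not give caller version or settings. Peak starts were converted to count from 1 in the text.

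Peaks were compared by overlap of at least 1 bp with Python 3.11.15 (pandas 2.3.3, scipy 1.17.1), and shares carry Wilson 95% intervals. Intervals treat peaks as independent and cover counting error only. Counts were scaled to each file's total, over 23530 entries; ratios used a pseudocount of 1 read, at least 20 reads over both libraries and exact conditional (Clopper-Pearson) 95% intervals. Symbols with several entries (310 entries) stayed in totals and out of per-gene work. Higher and lower genes had over 2-fold ratios and intervals that left out 1. Genes named for gain or loss were the 10 largest CPM differences each way with at least 100 reads and an interval that left out 1, without microRNA, small RNA, ribosomal RNA, Gm and Rik entries. Named domains were the 10 with most P12 peaks, the 5 widest broken peaks, the 5 largest and smallest one-to-one gains and the 5 widest P12 peaks without a P17 peak. The GRCm38.p6 table gave names, chromosomes and gene order. Alternatives were joining peaks, minimum widths, overlap, autosomes, edgeR 4.0.16 TMM factors, median-of-ratios factors, read minimums and pseudocounts. Scripts were tested on simulated data. The members and lists were chosen with earlier results of these data known.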

Additional observations from a re-analysis of the deposited data

How the results depend on the processing

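Results with peaks of each list within 1 kb joined, and within 3 kb joined, were 94.2% and 94.6% of P12 peaks overlapped, 73.8% and 77.7% paired one to one, 20.3% and 16.9% merged, a median width ratio of 2.54 for both, 66.9% and 65.9% at least 2 times as wide, and 33.8% and 34.7% of gaps up to 20 kb filled, against 58.7% as deposited; joining removes the shortest gaps by construction. With peaks at least 1 kb wide the values were 99.3% overlapped, 64.0% one to one, 35.2% merged, a ratio of 2.32, 65.0% at least 2 times as wide and 56.3% of gaps filled. With P12 peaks at least 500 bp wide, chosen after seeing the data, they were 96.3% overlapped, 47.3% one to one and a ratio of 2.79, and without gaps holding a skipped P12 number, also chosen later, 61.2% of gaps were filled. Groups of 1 P12 and several P17 peaks fell to 0 with 50% overlap and with 1 kb joining. With autosomes or without the chromosome 6 stretch, the shares of peaks and gaps stayed within the intervals reported. With 100 reads required, 3 genes were over 2-fold lower, against 73; the count of higher genes lay between 493 and 678 in the 5 alternatives. The best-covered 10% of genes held 53.3% of P17 reads with at least 1 read and 49.9% with 100. P17 H3K4me3 covered 26.4% of gained bases in one-to-one domains and 23.5% on autosomes, against 23.6%. TMM and median-of-ratios factors raised every log2 ratio by 0.08. No sign of a named gene whose interval excluded 1 reversed. Stricter peak thresholds could not be tried, as the lists carry no scores. No paired analysis was possible because each stage has 1 file. The P17 gene-body file held 1.98 times the reads of the P12 file, and the limit this sets on the peak lists was not tested.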

Other observations

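Growth and merging were spread over the autosomes. The merged share of P12 peaks ranged from 35.0% on chromosome 16 to 58.1% on chromosome 18 with a median of 49.4% over 19 autosomes, and the median width ratio of one-to-one peaks from 2.56 on chromosome 7 to 3.10 on chromosome 19. Chromosome 6, which holds the stretch without P17 peaks, had the highest share of P12 peaks with no P17 peak, 8.19%. The P17/P12 log2 ratios of gene bodies resembled those of neighbouring genes weakly: Pearson's r was 0.13 for adjacent genes over 17469 pairs and 0.03 for genes 20 places apart, across genes that share 2 libraries and partly overlap.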
